A study of Homo sapiens with 12 samples.

Results

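The experiment described here compared untreated K562 cells carrying a knockdown of RNF213 with untreated wild-type K562 cells. K562 is a human leukemia line that makes fetal and embryonic globins. The members are 2 of the 12 labelled RNA-seq libraries, RNF213kd_untreated and WT_untreated of experiment 3, chosen by their labels alone. Their partners in the same experiment, RNF213kd_palmitate and WT_palmitate, had received 0.2 mM palmitate bound to albumin for 20 h per the labels, while the legend of the table gives 16 h, and they serve as a second pair with the same genotypes. Each library was made from pooled RNA of 3 biological replicates, so each side of the comparison is 1 library and has no replicate check. The labels do not say how RNF213 was knocked down, whether the control cells received a control reagent, or whether the knockdown cells were 1 clone. The question put to these libraries is which mRNAs differ when RNF213 is lowered in cells that have not met palmitate.

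RNF213 is a very large protein with an ATPase motor of the AAA+ type and a RING domain, and it acts as a ubiquitin ligase. It is known as a susceptibility gene of moyamoya disease, is induced by interferons, has been placed on lipid droplets, where it stabilises the droplets against the lipase ATGL, and has been linked to the toxicity of saturated fatty acids. The integrated stress response, which several of the genes below belong to, is the program in which phosphorylation of the initiation factor eIF2 slows translation and lets the transcription factor ATF4 be made, which then induces genes of amino acid synthesis and transport, redox balance and growth arrest.

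The untreated pair was even in size, with summed FPKM (a level per transcript length and per library size) of 607088 in wild type and 616463 in the knockdown, and with 10478 and 10590 genes that reached 1 FPKM. The tables give no read counts, and the depth is therefore unknown. All 12 K562 markers were at 1 FPKM or more in both libraries. Of the markers of other cell types, CD3D of the T cell list (16.4 and 16.2 FPKM in wild type and knockdown), LYZ of the monocyte list (43.98 and 30.26 FPKM), 4 of 8 epithelial genes led by KRT18 (134 and 119 FPKM), and COL1A2 in wild type (1.40 FPKM, against 0.551 in the knockdown) were at that level. The summed markers of B cells, granulocytes and endothelial cells stayed under 1 FPKM in both. CD2, CD5, CSF1R, CD163, KRT5 and CDH5 were listed at 0 in both. The part of LYZ and COL1A2, which were lower in the knockdown, in the results below was not tested.

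The ratio of knockdown to wild type followed the GC content of the transcript in the untreated pair. Across 10233 genes its Spearman correlation with GC content was 0.65, given as a description since all genes share the same libraries, and the median log2 ratio of FPKM + 1 went from -0.16 in genes of at most 38% GC to 0.32 in genes of at least 61.1% GC, the lower and upper ends of the range with equal numbers of genes. The correlation was -0.02 in the palmitate pair. The trend was therefore taken out with a smoothed curve, and the GC-relative ratio used below is the log2 difference of FPKM + 1 between knockdown and wild type after each gene was set against genes of like GC content. A value of 1 is a 2-fold difference on that scale, which understates differences of genes near 1 FPKM.

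**Figure D1:**
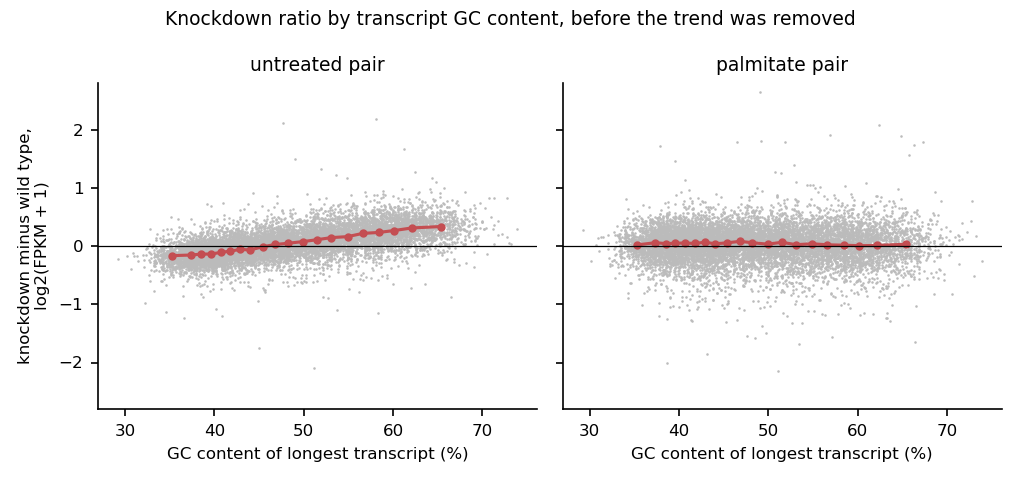
Log2 ratio of FPKM + 1, knockdown minus wild type, against transcript GC content in percent, for the untreated pair (left) and the palmitate pair (right). Grey dots are the 10233 tested genes and red points are medians in 20 equal groups of genes. The medians climb with GC content in the untreated pair, whose correlation was 0.65, and lie flat in the palmitate pair, at -0.02.

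RNF213 itself was at 1.96 FPKM in the untreated wild-type library and at 1.39 FPKM in the untreated knockdown library. Under palmitate it was at 3.08 FPKM in wild type and 1.54 FPKM in the knockdown. Both knockdown libraries were below both wild-type libraries of the experiment. The knockdown level was thus 71.1% of wild type without palmitate, 28.9% lower, and 50.1% with palmitate, 49.9% lower. The gene is listed at chr17:78234660-78411884 (hg19), a span that is also given for its neighbour ENDOV and holds both genes. The GC-relative ratio of RNF213 was -0.43 in the untreated pair and -0.72 in the palmitate pair.

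The remaining RNF213 message was therefore larger than the part removed in untreated cells, and the difference was small beside the spread of wild type. Untreated wild type held 4.67, 1.49 and 1.96 FPKM of RNF213 in experiments 1, 2 and 3, whose tables were normalised separately. RNF213 was the 214th lowest of 10233 ratios in the untreated pair and the 190th lowest in the palmitate pair. In a limma fit of genotype over the 4 libraries of experiment 3, with treatment as a block, RNF213 was lower by 0.58 ± 0.16 (log2, SE) with an unadjusted p of 0.00915 and a Benjamini-Hochberg adjusted p of 0.687. In the authors' deposited table the p-value of RNF213 for the untreated pair was 0.363.

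**Figure D2:**
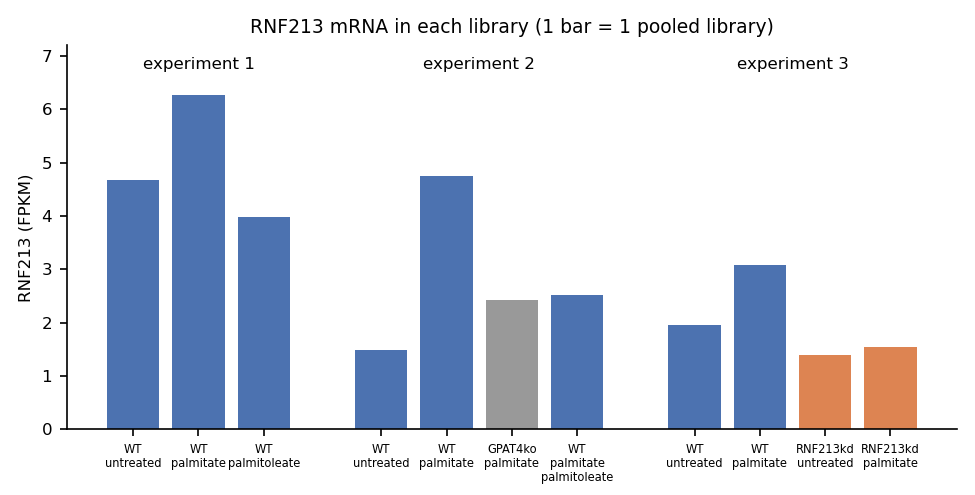
RNF213 in FPKM in each of the 11 libraries with values, 1 bar per pooled library, grouped by experiment (blue wild type, orange RNF213 knockdown, grey GPAT4 knockout). Levels compare only within an experiment. The 2 knockdown bars, at 1.39 and 1.54, are the lowest of experiment 3, while untreated wild type ranged from 1.49 to 4.67 between experiments.

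Few genes stood apart in the untreated pair. At least 2-fold higher in the knockdown were 6 of 10233 genes (0.0586%), namely SSX4B, DDIT4, RPL21, CHAC1, PRG2 and SLC27A5. At least 2-fold lower were 9 genes (0.088%), namely MAGEA9B, PAGE2B, PMF1-BGLAP, MT1X, SNHG9, SCG3, IGF1, XAGE1A and HIST1H4K. A 1.5-fold threshold, added after so few genes passed the first, was met by 48 genes upward (0.469%) and 85 downward (0.831%). The GC-relative ratios had an SD of 0.20 over genes and 98.7% of genes lay within 1.5-fold. For scale, the palmitate pair had an SD of 0.30 and 85 genes past 2-fold, and the palmitate response of wild type in the same experiment had an SD of 0.62 and 840 genes past 2-fold.

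Neither limma fit, at its main settings, called a gene. The test of the lone untreated ratio, which borrows its spread from the 3 wild-type palmitate ratios of the 3 experiments, called 0 genes (0%), where the smallest adjusted p was 1 and 34 genes (0.332%) had an unadjusted p under 0.05. The limma fit over both treatments also called 0 genes (0%), its smallest adjusted p being 0.0617 for MAGEA9B, and 694 genes (6.78%) had an unadjusted p under 0.05. In the authors' deposited table, 45 of 11626 tested genes (0.387%) had a p-value under 0.05 for this pair. Adjusted here over those genes, 1 of the deposited p-values, that of DDIT4, stayed under 0.05. The SE of the lone test was large beside the SD of 0.20 of the untreated ratios over genes, for example 0.265 for RPL19 and 0.239 for TNFAIP3. Its lack of calls therefore says little about which genes differ. The genes below are thus described by their values, and none was called by the 2 limma fits.

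The clearest difference in size among well-expressed genes was DDIT4, also called REDD1, a stress-induced inhibitor of the growth kinase complex mTORC1. DDIT4, at chr10:74033677-74035797 (hg19), was at 20.9 FPKM in untreated wild type and 98.4 FPKM in the untreated knockdown. Under palmitate it was at 253 FPKM in wild type and 216 FPKM in the knockdown. The untreated knockdown lay between untreated and palmitate-treated wild type, and under palmitate the genotypes were close. The untreated level was 4.72-fold that of wild type, and the GC-relative ratio was 1.95, with -0.25 in the palmitate pair. The limma interval of the untreated ratio, from the spread of wild-type palmitate ratios, was 0.46 to 3.45 (unadjusted p of 0.0184, adjusted p of 1). The p-value in the authors' deposited table was 1.55e-09 for the untreated pair. Untreated wild type of experiments 1 and 2, in their own tables, held 68.3 and 20.4 FPKM of DDIT4, so the knockdown library was above all 3.

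CHAC1, an ATF4 target whose enzyme degrades glutathione, was the second stress gene past 2-fold. It was at 0.410 FPKM in untreated wild type, 3.47 FPKM in the untreated knockdown, 7.66 FPKM in wild type with palmitate and 6.82 FPKM in the knockdown with palmitate. The order of the 4 libraries was thus that of DDIT4. Its FPKM was 8.47-fold higher in the untreated knockdown, its GC-relative ratio was 1.38 (limma interval 0.18 to 2.58), and the ratio became 2.48 with a pseudocount of 0.1 in place of 1. Untreated wild type held 3.95 FPKM of CHAC1 in experiment 1 and 0.362 in experiment 2, so the knockdown value lies inside the range of untreated wild type between experiments. The p-value of CHAC1 in the authors' deposited table was 0.000268.

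GDF15 and ATF3 came next within the integrated stress response. GDF15, a secreted stress cytokine, was at 13.0 FPKM in untreated wild type and 26.6 in the untreated knockdown, against 187 and 148 under palmitate. ATF3, a stress-induced transcription factor, was at 2.50 and 4.60 FPKM untreated and at 118 and 56.3 FPKM under palmitate. Both were higher in the knockdown without palmitate and lower in it with palmitate. Their GC-relative ratios were 0.67 and 0.66 in the untreated pair and -0.36 and -1.12 in the palmitate pair. Untreated wild type of the other experiments had 17.3 and 19.5 FPKM of GDF15, both under the knockdown value, and 5.47 and 4.07 FPKM of ATF3, which enclose it.

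Of 32 listed genes of the integrated stress response 28 were tested. In the untreated pair 4 of them were at least 1.5-fold higher (DDIT4, CHAC1, GDF15 and ATF3) and 0 at least 1.5-fold lower, against 0.469% and 0.831% of all genes. Above 0 were 23 of the 28 (82.1%), against 49.9% of all tested genes, and the list median was 0.17 against 0 for all genes. It stayed between 0.17 and 0.34 over the alternatives of scaling and filter. The larger values below the leading 4 were those of INHBE, an activin subunit gene (0.849 and 2.00 FPKM, ratio 0.54), ALDH1L2, a mitochondrial folate enzyme (0.931 and 1.53 FPKM, 0.48), and ASNS, asparagine synthetase (49.6 and 64.6 FPKM, 0.44). The regulators themselves differed less, with ATF4 at 122 and 156 FPKM (0.14), DDIT3, which encodes CHOP, at 46.2 and 53.9 FPKM (0.14), and PPP1R15A, the feedback phosphatase subunit, at -0.20. The list median had the other sign in the palmitate pair, -0.35, where 3 of the 28 were above 0. Over the 3 untreated wild-type libraries of the 3 experiments, the knockdown value was above all in 5 of the 28 genes, below all in 2 and within their range in 21. These FPKM were normalised separately per experiment and carry no GC step. The share over all genes was not computed, so the counts are a description only.

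The sequence before the start of 3 of these genes is shown because they had the largest untreated differences of the list, and each has 1 entry in the promoter table (RefSeq, GRCh38.p14, plus strand for all 3). Each run is the 250 bases before the transcription start, 5′ to 3′, at chr10:72273674-72273923 for DDIT4, chr15:40953221-40953470 for CHAC1 and chr19:18385908-18386157 for GDF15. Capitals mark a match to TGATGNAA on either strand, the composite element at which ATF4 and C/EBP proteins are known to bind.
DDIT4: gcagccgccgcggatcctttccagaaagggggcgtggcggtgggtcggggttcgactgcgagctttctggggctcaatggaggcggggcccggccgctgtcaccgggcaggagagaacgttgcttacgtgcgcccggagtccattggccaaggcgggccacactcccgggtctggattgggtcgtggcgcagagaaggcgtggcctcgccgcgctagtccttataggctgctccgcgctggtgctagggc
CHAC1: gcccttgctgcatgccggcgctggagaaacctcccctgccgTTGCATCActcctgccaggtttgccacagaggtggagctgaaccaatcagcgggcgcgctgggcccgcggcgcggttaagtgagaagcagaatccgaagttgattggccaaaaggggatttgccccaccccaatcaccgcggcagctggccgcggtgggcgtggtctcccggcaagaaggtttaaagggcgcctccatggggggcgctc
GDF15: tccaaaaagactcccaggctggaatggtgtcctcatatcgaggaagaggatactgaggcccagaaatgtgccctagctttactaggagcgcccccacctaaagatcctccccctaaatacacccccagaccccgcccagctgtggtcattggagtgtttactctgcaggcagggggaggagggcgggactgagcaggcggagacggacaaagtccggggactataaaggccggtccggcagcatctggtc
CHAC1 holds 1 match, read on the opposite strand, which begins 209 bases before its start. DDIT4 and GDF15 hold 0 in this window. Of 27305 genes with 250 such bases in the table, 1061 (3.89%) hold a match. Only 22 of the 32 list members matched the table by symbol, fewer than 80%, so no share is given for the list. A match is a description of these letters, not a binding site.

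PRG2, which encodes eosinophil major basic protein, was the 1 gene at least 2-fold higher in both pairs that has no near-identical copy. It was at 12.6 FPKM in untreated wild type and 33.3 in the untreated knockdown, and at 8.19 and 30.8 FPKM under palmitate. Both knockdown libraries were above both wild-type libraries. The GC-relative ratios were 1.21 and 1.75, and the limma fit over both treatments gave 1.48 ± 0.15 (log2, SE) with an adjusted p of 0.207. Untreated wild type of experiments 1 and 2 had 39.0 and 67.4 FPKM of PRG2, above the knockdown value.

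SLC27A5, which encodes an acyl-CoA synthetase of bile acids and very long chain fatty acids, was at 2.00 FPKM in untreated wild type and 6.02 in the untreated knockdown. Under palmitate the values were 2.75 and 4.41 FPKM. The ratio was 1.08 untreated and 0.49 under palmitate, with limma limits of -0.13 and 2.28 for the untreated pair. FAM178B was at 49.9 and 122 FPKM untreated and at 9.32 and 42.5 FPKM under palmitate, with ratios of 0.97 and 2.05. Both genes were higher in the knockdown in each pair, and both were at higher levels in untreated wild type of experiment 1 (9.49 FPKM for SLC27A5 and 248 for FAM178B) than in the untreated knockdown.

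The tested globin genes, of a family that makes the main products of the erythroid program of K562 cells, were all on the higher side. HBB (0.447 and 0.375 FPKM untreated) and HBM (0 in both) were listed but too low to be tested. HBZ, the embryonic zeta chain, was at 304 FPKM in untreated wild type and 655 in the untreated knockdown, and at 145 and 541 FPKM under palmitate. HBE1, the embryonic epsilon chain, was at 766 and 1174 FPKM untreated and at 488 and 1160 under palmitate. Both knockdown libraries were above both wild-type libraries for each gene. All 9 tested globin genes were above 0 in the untreated pair, against 49.9% of all tested genes. Their ratios ran from 0.05 for HBBP1 to 0.78 for HBZ with a median of 0.24. Past 1.5-fold upward was 1 of 9, against 0.469% of all genes. Over the untreated wild-type libraries of the 3 experiments, the knockdown value was above all for 4 of the 9 and within their range for 5, HBZ and HBE1 among them. That comparison uses FPKM normalised separately per experiment, without the GC step. The share over all genes was not computed, so the 4 of 9 is a description only. In the palmitate pair the median was 1.20 and 8 of 9 were past 1.5-fold, against 1.63% of all genes in that direction. Reads of HBA1 and HBA2, and of HBG1 and HBG2, can be split between near-identical copies. Without the GC step the untreated globin median was 0.60. In pooled RNA a larger share of globin-making cells and more globin RNA per cell cannot be told apart.

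The other erythroid genes did not share the globins' side in the untreated pair. Of 33 tested, 13 were above 0, against 49.9% of all tested genes, and the median was -0.04, which became 0.06 without the GC step. None was past 1.5-fold either way, where 98.7% of all genes were within it. AHSP, the chaperone of alpha globin, was at 11.1 and 16.9 FPKM (0.43), and KLF1, a master regulator of red cell genes, was at 36.2 and 60.0 FPKM (0.38). Under palmitate 28 of the 33 were above 0, with a median of 0.44.

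Among the lower genes, IGF1, a growth factor, was at 10.3 FPKM in untreated wild type and 3.78 in the untreated knockdown, and at 26.4 and 15.4 FPKM under palmitate. The ratios were -1.08 and -0.77, and the limma fit over both treatments gave -0.93 ± 0.13 (log2, SE) with an adjusted p of 0.508. The knockdown was lower than wild type in each pair. Wild type itself held 3.501 and 0.0408 FPKM of IGF1 untreated in experiments 1 and 2, so the untreated knockdown lay within its range.

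SCG3, a protein of secretory granules, was at 40.7 and 17.2 FPKM untreated (-1.10) and at 24.5 and 20.0 FPKM under palmitate (-0.33). MT1X, a metallothionein, was at 6.45 and 2.49 FPKM untreated (-1.25) and at 3.74 and 2.47 FPKM under palmitate (-0.49). SNHG9, a noncoding host of small nucleolar RNA, was at 229 and 125 FPKM untreated (-1.21) and at 154 and 132 FPKM under palmitate (-0.26). In these 3 genes the difference was larger without palmitate than with it, a contrast that was not tested. The knockdown value of MT1X and of SNHG9 was below all 3 untreated wild-type libraries, at 13.3 and 18.6 FPKM for MT1X and 153 and 282 FPKM for SNHG9 in experiments 1 and 2, while that of SCG3 was within their range. SNHG9 fell short of 2-fold without the GC step, at -0.87.

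**Figure D3:**
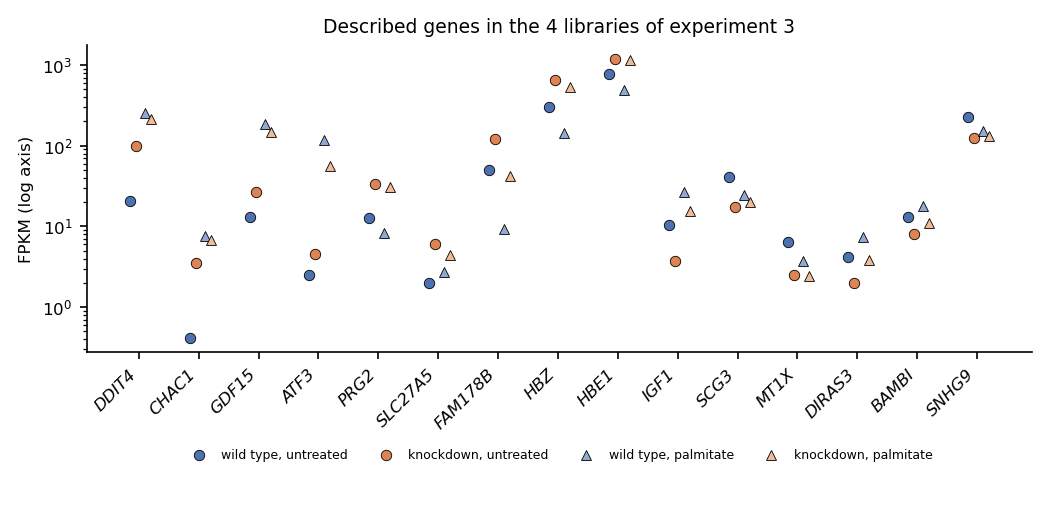
FPKM on a log axis of 15 described genes in the 4 libraries of experiment 3 (circles untreated, triangles palmitate, blue wild type, orange knockdown, 1 library per symbol). DDIT4, CHAC1, GDF15 and ATF3 are higher in the knockdown without palmitate and not with it, PRG2, FAM178B, HBZ and HBE1 are higher in both pairs, and IGF1, DIRAS3 and BAMBI are lower in both.

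The remaining leading genes are listings that can share reads with a near-identical copy or a read-through transcript, and their values are uncertain. The sharing itself was not tested, and MAGEA9 and SSX4, the copies of MAGEA9B and SSX4B, have no listed values. MAGEA9B, a cancer-testis gene, was listed at 3.301 FPKM in untreated wild type and 0.00158 in the untreated knockdown, and at 3.46 and 0.00159 FPKM under palmitate. In wild type of experiments 1 and 2 it was at 0.00933 and 0.00977 FPKM untreated, so the knockdown value was near that of other wild-type cells. SSX4B was at 0.000386 FPKM in untreated wild type and at 3.31 in the untreated knockdown, and at 2.18 and 3.51 under palmitate. RPL21, a ribosomal protein gene, was at 22.4 and 64.8 FPKM untreated and 11 and 73.7 under palmitate, while RPL21P28, listed with it, was at 3089 and 2432 FPKM untreated and marked by the authors' table as low in data. PAGE2B (12.5 and 3.01 FPKM), XAGE1A (49.9 and 26.5 FPKM), PMF1-BGLAP (10.3 and 4.09 FPKM) and HIST1H4K (6.09 and 3.32 FPKM) make up the rest. Lower together with these were the copies PAGE2 (1.60 and 0.296 FPKM untreated) and HIST1H4J (4.56 and 3.28 FPKM). XAGE1C (69.7 and 62.8 FPKM) and XAGE1D (120 and 95.1 FPKM) were also lower. On the other side were XAGE1E (3.19 and 3.46 FPKM) and PMF1 (36.8 and 41.4 FPKM). Without such listings 4 genes were at least 2-fold lower (MT1X, SNHG9, SCG3 and IGF1) and 4 at least 2-fold higher (DDIT4, CHAC1, PRG2 and SLC27A5).

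Values just around the 2-fold line were close together. XAGE1A at -1.02 and HIST1H4K at -1.01 lay just inside, and RHOXF2B at -0.99, HIST1H3B at -0.99 and RBM14-RBM4 at 0.99 lay just outside.

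The palmitate pair shares no library with the untreated pair and measures the same genotypes. It had 22 genes at least 2-fold higher (0.215%) and 63 at least 2-fold lower (0.616%), and 167 (1.63%) and 337 (3.29%) at 1.5-fold. Across genes the GC-relative ratios of the pairs correlated with a Pearson r of 0.17 and a Spearman rho of 0.13, given as a description over 10233 genes of the same 4 libraries. At 2-fold in both pairs, RPL21 and PRG2 were higher and MAGEA9B was lower. At 1.5-fold, 6 genes were higher in both, 12.5% of the untreated and 3.59% of the palmitate list, and 19 were lower in both, 22.4% and 5.64%. In opposite directions at 1.5-fold were 7 genes.

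The genes higher in both pairs at 1.5-fold were RPL21, PRG2, FAM178B, HBZ, C1orf38 (1.67 and 3.67 FPKM untreated) and HYAL1, a hyaluronidase (2.19 and 4.84 FPKM untreated). Of those lower in both, COL15A1, a collagen chain, was at 2.92 and 1.34 FPKM untreated and 5.82 and 2.83 under palmitate, with ratios of -0.92 and -0.87. DIRAS3, an imprinted Ras-like growth suppressor, was at 4.18 and 2.01 FPKM untreated and 7.45 and 3.79 under palmitate, with ratios of -0.78 and -0.88. BAMBI, a decoy receptor of TGF-beta signals, was at 13.0 and 8.10 FPKM untreated and 17.9 and 10.9 under palmitate, with ratios of -0.73 and -0.71. All 3 were lower in each knockdown library than in its wild-type partner by nearly the same ratio in both pairs. In limma over both treatments each of the 3 had an adjusted p of 0.508. The others lower in both were MAGEA9B, SAT2, IGF1, SCN9A, FKBP11, LARP6, EVI2B, SNHG12, MILR1, HIST1H4J, HNMT, RAB32, C19orf73, NNMT, PDGFA and LGALS3, with untreated ratios from -1.08 for IGF1 to -0.59 for LGALS3 apart from MAGEA9B at -2.20.

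**Figure D4:**
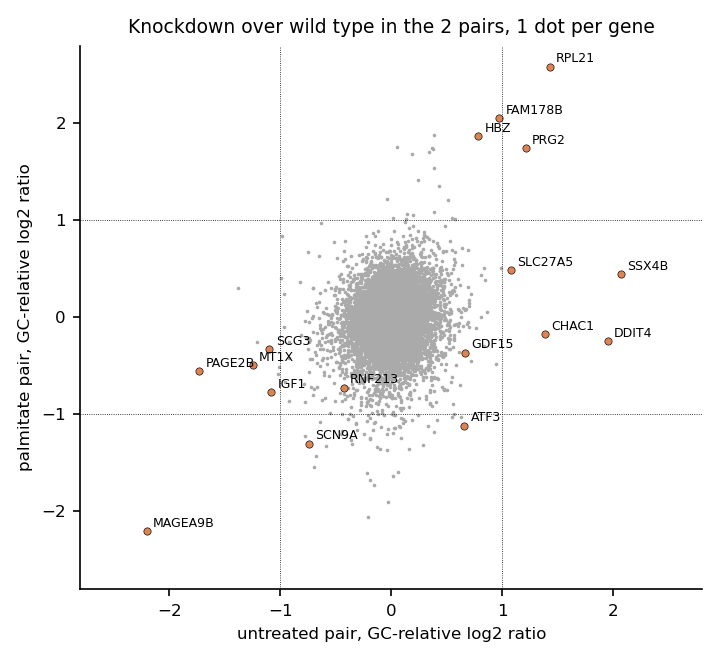
GC-relative log2 ratio of knockdown to wild type in the untreated pair (x) and the palmitate pair (y), 1 dot per gene for 10233 genes, with dotted lines at 2-fold and described genes in orange. DDIT4 and CHAC1 lie far to the right at a y value near 0, PRG2, FAM178B and HBZ lie at the upper right, and the cloud as a whole shows little relation (r of 0.17).

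Genes of protein folding in the endoplasmic reticulum did not share the side of the integrated stress response. Of 26 tested chaperone and folding genes, 4 were above 0 in the untreated pair, against 49.9% of all tested genes. None was past 1.5-fold, where 98.7% of all genes were within it. The median was -0.14, with a range of -0.15 to -0.12 over the alternatives. MANF, a secreted stress protein of that compartment, was at 37.1 and 30.2 FPKM (-0.40), and HSPA5, the chaperone BiP, was at 132 and 115 FPKM (-0.15). DNAJB9, a cochaperone induced through XBP1, was at 8.62 and 6.70 FPKM (-0.17). In the palmitate pair 0 of 26 were above 0 and the median was -0.40. The 22 tested genes of degradation from the endoplasmic reticulum had a median of 0.00, with RNF5 (22.8 and 36.0 FPKM, 0.49) and HERPUD1 (9.96 and 14.6 FPKM, 0.48) highest.

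Amino acid transporters, many of them ATF4 targets, lay on the side of the integrated stress response. Of 11 tested, 9 were above 0 with a median of 0.11, against 49.9% of all tested genes above 0. As for 98.7% of all genes, their ratios were within 1.5-fold. SLC7A11, the cystine carrier, was at 2.51 and 3.09 FPKM (0.39), and SLC38A2 was at 50.0 and 54.2 FPKM (0.27). In the palmitate pair 0 of 11 were above 0, with a median of -0.25.

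**Figure D5:**
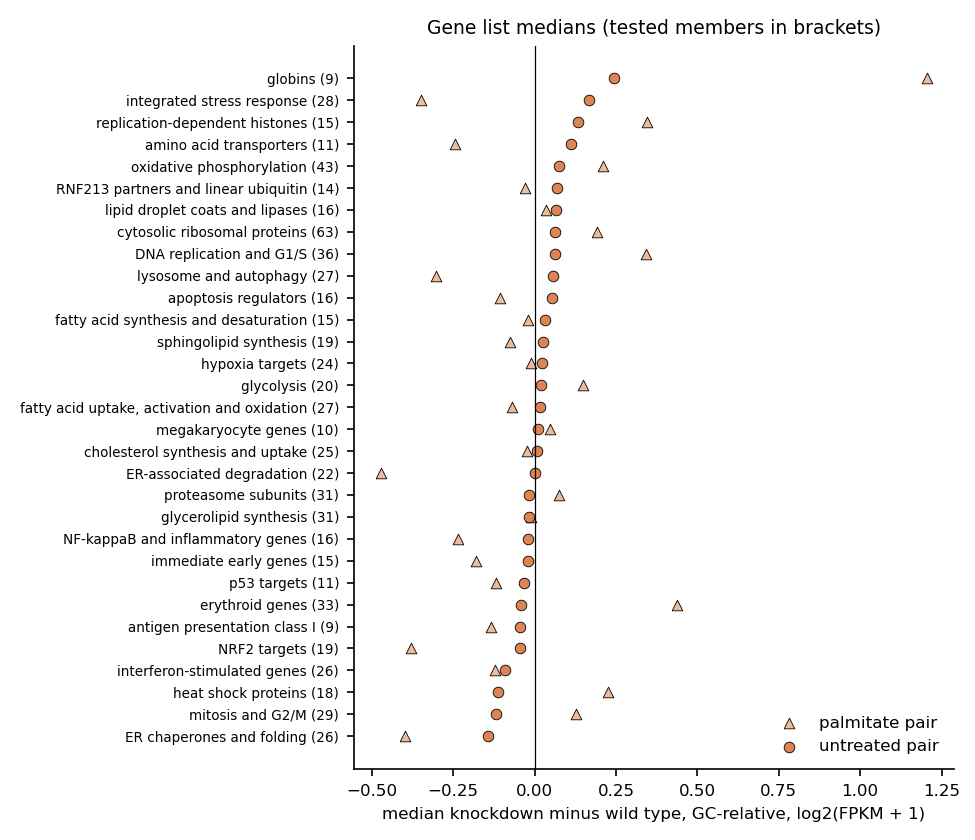
Median GC-relative log2 ratio of knockdown to wild type of 31 gene lists in the untreated pair (circles) and the palmitate pair (triangles), with the number of tested genes in brackets. Untreated medians run from -0.14 for endoplasmic reticulum chaperones to 0.24 for globins, and the integrated stress response is at 0.17 in the untreated pair and -0.35 in the palmitate pair.

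Genes of the processes RNF213 is known for gave counts that do not set them apart, since 98.7% of all tested genes lay within 1.5-fold. Of 14 tested partners of RNF213 and of linear ubiquitin chains, 0 were past 1.5-fold and the ratios ran from -0.27 for UBE2L3, a conjugating enzyme with which RNF213 works, to 0.29 for TNFAIP3, which edits ubiquitin chains. PNPLA2, which encodes ATGL, was at 8.09 FPKM in untreated wild type and 12.03 in the untreated knockdown, and at 10.5 and 11.5 FPKM under palmitate. Its ratio was 0.20, and 0.52 without the GC step. PLIN2, a coat protein of lipid droplets, was at 17.7 and 20.9 FPKM untreated and at 79.5 and 91.8 under palmitate, with ratios of 0.19 and 0.15. Over the 16 tested lipid droplet genes 0 were past 1.5-fold and the median was 0.07.

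mRNAs of lipid synthesis enzymes gave counts at the share of all genes. None of the 15 tested genes of fatty acid synthesis and desaturation, the 31 of glycerolipid synthesis, the 25 of cholesterol synthesis and uptake or the 19 of sphingolipid synthesis was past 1.5-fold, where 98.7% of all tested genes were within it, and their medians were 0.03, -0.02, 0.01 and 0.03. SCD, the desaturase that turns saturated into monounsaturated acyl chains, was at 148 and 165 FPKM (0.15), and FASN, fatty acid synthase, was at 40.2 and 57.0 FPKM (0.17). Of 27 genes of fatty acid uptake, activation and oxidation, SLC27A5 was past 1.5-fold upward and SLC27A2, another acyl-CoA synthetase, downward at 14.4 and 8.67 FPKM (-0.73).

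Interferon and inflammatory genes showed no common side. Of 26 tested interferon-stimulated genes 10 were above 0 (38.5%, against 49.9% of all tested genes), with a median of -0.09. Past 1.5-fold upward was 1 (IFI27, 0.417 and 1.64 FPKM), where 0.469% of all genes were. Downward were 2 (IFI6, 2.58 and 1.53 FPKM, and IRF7, 1.05 and 0.692 FPKM), where 0.831% of all genes were. The surface proteins IFITM1, IFITM2 and IFITM3 were at 0.32, 0.38 and 0.37, while CMPK2 was at -0.51. Of 16 genes of NF-kappaB and inflammation, CCL2, a chemokine, was past 1.5-fold downward, from 1.00 to 0.191 FPKM, and the median of -0.02 changed sign under 5 of the alternatives. IL8, the chemokine now named CXCL8, was at 0.991 and 0.955 FPKM.

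Mitosis and heat shock genes lay slightly low, where 49.9% of all tested genes were above 0 and 98.7% were within 1.5-fold. Of 29 tested mitosis genes 7 were above 0 with a median of -0.12, led by HMMR (62.6 and 45.7 FPKM, -0.28), and of 18 heat shock genes 4 were above 0 with a median of -0.11, led by DNAJB6 and HSPA8 (1449 and 1166 FPKM, -0.31). Genes of DNA replication had a median of 0.06. None of the mitosis and heat shock genes was past 1.5-fold, and in the palmitate pair both medians had the other sign, 0.13 and 0.23.

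Whether untreated knockdown cells look like palmitate-treated cells was read from genes chosen in other libraries. In wild type of experiments 1 and 2, 564 tested genes were at least 2-fold higher with palmitate in both experiments and 153 were at least 2-fold lower. In the untreated pair of experiment 3 the 564 had a median of 0.01, with 51.6% above 0 and 9 genes past 1.5-fold in each direction. The 153 had a median of 0.08, with 65.4% above 0, 2 genes past 1.5-fold upward (PRG2 and FAM178B) and 0 downward. The 9 of the 564 that were also higher in the knockdown were DDIT4, CHAC1, C1orf100, GAS5, IFI27, GDF15, ATF3, CSTA and AKR1C2. Over all tested genes the median was 0, 0.469% were past 1.5-fold upward and 0.831% downward, and the 5th to 95th percentiles were -0.31 to 0.32, against -0.36 to 0.40 for the 564. The median of the 564 was thus that of all genes, with a wider spread on both sides. In the palmitate pair the same 564 had a median of -0.45, with 195 past 1.5-fold lower and 0 higher, and the 153 had a median of 0.43, with 45 higher and 0 lower.

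The genes beside RNF213 on chromosome 17 are given to show the levels around it. Of the 8 listed genes on each side in the annotation, 8 of 16 were tested, and 9 of the 16 were under 1 FPKM in both untreated libraries. Of the tested, 6 were below 0, where 49.9% of all tested genes were above 0. None was past 1.5-fold on the GC-relative scale of FPKM + 1, where 98.7% of all genes were within it. Next to RNF213, SLC26A11, a sulfate transporter, was at 0.578 and 0.875 FPKM (-0.02), and ENDOV, an endonuclease on the other side, was at 0.316 and 0.497 FPKM. SGSH, a lysosomal enzyme, was at 1.83 and 3.13 FPKM (0.28), RPTOR, a subunit of mTORC1, was at 5.86 and 6.96 FPKM (-0.05), and C17orf56 was lowest at 2.97 and 2.31 FPKM (-0.54). Without the GC step SLC26A11 and RPTOR read 0.25 and 0.21.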

How the data were processed

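Poly(A) RNA of K562 cells was sequenced from pooled triplicates. Per the submitters' processing notes and the series' design text, reads were mapped to hg19 with TopHat2 and compared with Cuffdiff, versions not given in the sources used here. The deposited values are FPKM that the authors scaled within each of 3 tables, 1 per experiment, and p-values that the authors deposited from Cuffdiff on pairs of single libraries. Their depth is unknown. Low-data listings (149 genes in experiment 3), failed or capped ones (6), 28 symbols turned into dates and genes listed inconsistently (15) were left out, as were 2 libraries not in the labels. Starts in the tables count from 0 (with 1 added, 6963 of 19414 genes match an annotated transcript start, against 878 as deposited) and are printed from 1.

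Values were taken as log2(FPKM + 1) on 10233 genes that averaged at least 1 FPKM over experiment 3 and had a known GC content (96.3% of genes at that level), without 137 small RNA genes. GC content is that of the longest GENCODE v44lift37 transcript, and its trend was removed by lowess (window 0.3). limma 3.58.1 in R 4.3.3 (intensity trend, Benjamini-Hochberg adjusted p under 0.05) was run in 2 ways. The first assumes that the lone knockdown ratio varies as the 3 wild-type palmitate ratios do (2 residual and 4.30 prior degrees of freedom). The second fits genotype with treatment as a block (1 residual and 5.57 prior). Scripts were tested on simulated data. The design pairs libraries by experiment and treatment. Before limma's moderation, the spread of the first is that of the wild-type palmitate response between experiments. That of the second is how far the genotype difference varies between untreated and palmitate libraries, and its SE values rest on it. Neither is the spread of replicate libraries of 1 genotype and treatment. Nothing says that pools came from separate cultures, so these p-values do not measure the spread between replicate cultures.

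Members, lists and thresholds were chosen with earlier results of these data known. Named genes are RNF213, the 12 largest rises and falls past 2-fold at a mean of at least 5 FPKM, those past 2-fold in both pairs, any limma calls, the 4 list members with the largest values, a panel of stress and lipid genes and the neighbours of RNF213. Others, such as all genes past 2-fold or past 1.5-fold in both pairs, were named after their values were seen. Other settings tried were no filter or a minimum mean of 5 FPKM, a pseudocount of 0.1, no GC step, GC medians in 20 bins, median centring, small RNA genes kept, no intensity trend, no block and each ratio or library left out.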

Additional observations from a re-analysis of the deposited data

Results flagged for a closer look

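In 7 genes the knockdown difference was past 1.5-fold in one direction without palmitate and in the other with it. Of the 48 genes past 1.5-fold upward without palmitate, 3 were past it downward with palmitate, where 3.29% of all tested genes were. Of the 85 downward without palmitate, 4 were past it upward with palmitate, where 1.63% of all tested genes were. Each direction rests on 1 library against 1, and the difference between the pairs was not tested. Some values were near 1 FPKM, as for HSPB3 in wild type and knockdown (1.75 and 0.799 FPKM untreated, 0.817 and 1.92 with palmitate). The GC-relative log2 ratios of knockdown to wild type, untreated and then with palmitate, were 0.66 and -1.12 for ATF3, a stress-induced transcription factor, 0.63 and -1.03 for CSTA, a protease inhibitor, and 0.62 and -0.70 for AKR1C2, a steroid-reducing enzyme. These 3 were among the genes that palmitate raised in experiments 1 and 2. The opposite order was seen for S100A4, a calcium-binding protein, at -0.64 and 0.97, HSPB3, a small heat shock protein, at -0.65 and 0.63, EIF4EBP3, a translation repressor, at -0.75 and 0.68, and HIST1H3B, a histone gene, at -0.99 and 0.83.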

How the results depend on the processing

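The RNF213 ratio of -0.43 stayed between -0.60 and -0.31 under the alternatives that could give it. The counts of genes past 2-fold moved by more than 1.5 times as follows. The 6 higher genes became 22 with a pseudocount of 0.1, 10 with no filter, 3 at a mean of at least 5 FPKM, 10 with no GC step, 10 with centring on the median, 48 with small RNA genes kept and 48 at 1.5-fold. The 9 lower genes became 34 with a pseudocount of 0.1, 47 with small RNA genes, 4 without genes that have copies and 85 at 1.5-fold. The 2 genes higher in both pairs became 4 with no GC step or with centring, 7 with small RNA genes, 1 without copies and 6 at 1.5-fold. The 1 lower in both became 8 with a pseudocount of 0.1, 9 with small RNA genes, 19 at 1.5-fold and 0 at 5 FPKM or without copies. The 1.5-fold threshold and leaving out genes with copies were chosen after seeing the data. The cause was not tested where the alternative does not itself add or drop genes.

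The limma test of the lone ratio called 16 genes with small RNA genes kept, all of them small RNA genes, and 0 when any wild-type ratio was left out (smallest adjusted p from 0.191 to 1). The fit over both treatments called 41 genes with no filter, 116 with no GC step, where limma set the prior degrees of freedom to infinity, 2 with small RNA genes, and 1, MAGEA9B, with GC bins or no intensity trend. With no treatment block, with or without each library in turn, it called 0, as in the fit with the block. Of 36 list medians 7 changed sign with no GC step, all of them between -0.11 and 0 with it. SDF2L1 (-0.29) and AGPAT2 (-0.29) read 0.03 and 0.04 with no GC step.

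With 1 library a side and unknown depth, values near 1 FPKM, RNF213 included, have no error of their own, and the limma limits of the DDIT4 ratio ran from 0.46 to 3.45. The spread borrowed from palmitate responses is wide beside the SD of 0.20 of the untreated ratios, and not only for genes that palmitate moves.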
